A study of Mus musculus with 6 samples.

Results

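Proliferins are secreted glycoproteins of the prolactin family, encoded in the mouse by the Prl2c genes. The table of expression values held 4 rows whose name begins with Prl2c, out of 21878 genes, namely Prl2c3, Prl2c2, Prl2c5 and Prl2c1. The family was chosen by its name and for the fall of Prl2c3 between the groups described here, so the proliferin values are given as a description, with no test. The cells were NIH3T3 fibroblasts, a line derived from mouse embryos that grows without limit, and the labels give all of them a radiation injury. Irradiated cells treated with plasma-derived exosomes, which are small membrane vesicles shed by cells, made up 3 libraries. Irradiated cells given PBS (phosphate-buffered saline) made up the other 3, and both groups were labelled 72 h. The labels give neither the radiation dose nor the species of the plasma, and they do not state separate cultures for the 3 libraries within a group. P-values therefore measure only how far these libraries spread, and that spread may be technical. An unirradiated group was not analysed here, so every comparison is between irradiated cells.

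Proliferins are best known as hormones of the placenta, where trophoblast giant cells release them and where they promote the growth of maternal blood vessels. They carry a mannose 6-phosphate tag and bind the cation-independent mannose 6-phosphate receptor (Igf2r). The family takes its name from mouse fibroblast cultures, in which serum and growth factors induce it as resting cells re-enter the cell cycle. The proliferin promoter is known to respond to growth factors and phorbol ester through AP-1, the transcription factor built of Fos and Jun proteins.

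The members are so alike that short reads can be shared between them, and the sequences show where they can be told apart. In the GENCODE M21 transcripts (build GRCm38) all 4 genes lie on chromosome 13 and have 5 exons. Prl2c3 and Prl2c2, known in the RefSeq table also as PLF-2 and PLF-1, have coding sequences of 675 bases each. These differ at 3 of the 675 positions. Counted from 1 at the A of the start codon and written with the Prl2c2 base first, the differences are T14C in exon 1, C200A in exon 2 and T319G in exon 4, and each changes an amino acid. The stretches around them are shown because only reads that cross one of these bases, or differ in the untranslated ends, tell the pair apart. Capitals mark the base that differs between Prl2c3 and Prl2c2, and in Prl2c5 every base that differs from Prl2c3.
Prl2c3, coding bases 1 to 34: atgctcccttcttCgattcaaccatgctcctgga
Prl2c2, coding bases 1 to 34: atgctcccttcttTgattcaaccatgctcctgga
Prl2c5, coding bases 1 to 34: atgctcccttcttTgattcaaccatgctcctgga
Prl2c3, coding bases 180 to 220: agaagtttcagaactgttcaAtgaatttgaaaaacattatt
Prl2c2, coding bases 180 to 220: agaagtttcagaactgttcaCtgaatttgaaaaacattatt
Prl2c5, coding bases 180 to 220: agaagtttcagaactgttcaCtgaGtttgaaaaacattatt
Prl2c3, coding bases 299 to 339: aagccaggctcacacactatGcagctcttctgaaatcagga
Prl2c2, coding bases 299 to 339: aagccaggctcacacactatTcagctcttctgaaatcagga
Prl2c5, coding bases 299 to 339: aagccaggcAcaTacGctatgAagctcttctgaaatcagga

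Over whole transcripts, of 857 bases in Prl2c3 and 842 bases in Prl2c2, the alignment held 838 identical bases, 4 mismatches and 15 gap bases. The longest exact run that the pair shares is 466 bases. The labels give reads of 125 or 150 bases, sequenced as paired ends. Of the 125-base windows of the Prl2c3 transcript, 55.0% occur unchanged in Prl2c2, and at 150 bases the share is 49.9%. At 300 bases, roughly the size of a sequenced fragment read from both ends, 29.9% of Prl2c3 windows occur in Prl2c2. Prl2c5 and Prl2c1 stand further off. The coding sequence of Prl2c5 has 21 mismatches and 6 gap bases against Prl2c3, that of Prl2c1 has 41 mismatches and 12 gap bases, and neither shares an exact 125-base window with Prl2c3 or Prl2c2. Gm7040, annotated by GENCODE as an unprocessed pseudogene, is 98.2% identical to Prl2c3 over 443 bases and is the only other annotated gene that aligned to a proliferin over at least 125 bases at 90% identity or more. The sources used here do not say how the authors' programs placed reads that match more than 1 of these genes. The split between Prl2c3 and Prl2c2 is therefore uncertain. Their sum does not depend on how shared reads are divided between them. It would be too low if shared reads were discarded, and too high if each were counted in full for both genes. The reference transcripts are from C57BL/6J mice, and whether the NIH3T3 alleles carry the same bases was not tested.

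Prl2c3 and Prl2c2 were both lower in exosome-treated than in PBS-treated cells, Prl2c3 by more, and the other members were close to 0. Levels are given in FPKM, which corrects fragment numbers for transcript length and library size. Prl2c2 carried most of the proliferin signal in every library. Prl2c3 was at 5.17, 2.95 and 3.16 FPKM in the exosome libraries, against 47.5, 31.3 and 64.9 FPKM in the PBS libraries. The groups did not overlap, and every PBS library lay far above every exosome library. Mean Prl2c3 was 3.76 ± 1.22 FPKM with exosomes and 47.9 ± 16.8 FPKM with PBS (SD, n = 3 each), a level 12.7-fold higher in PBS. Prl2c2 was at 87.8, 73.6 and 64.5 FPKM in the exosome libraries, against 268, 196 and 281 FPKM in the PBS libraries, again without overlap. Mean Prl2c2 was 75.3 ± 11.8 FPKM with exosomes and 248 ± 46.0 FPKM with PBS (SD, n = 3 each), 3.30-fold higher in PBS.

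Summed over the 4 rows, proliferin transcripts stood at 93.0, 76.5 and 67.8 FPKM in the exosome libraries, against 316, 227 and 346 FPKM in the PBS libraries. The mean sum was 79.1 ± 12.8 FPKM with exosomes and 296 ± 61.8 FPKM with PBS (SD, n = 3 each), 3.75-fold higher in PBS. The sum made up 0.0216% to 0.0301% of all FPKM in the exosome libraries and 0.0742% to 0.117% in the PBS libraries. By mean level Prl2c2 ranked 580 of 21878 genes with exosomes and 161 with PBS. In these bulk libraries fewer cells of a type and less RNA per cell cannot be told apart, so a lower level may stand for either.

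**Figure D1:**
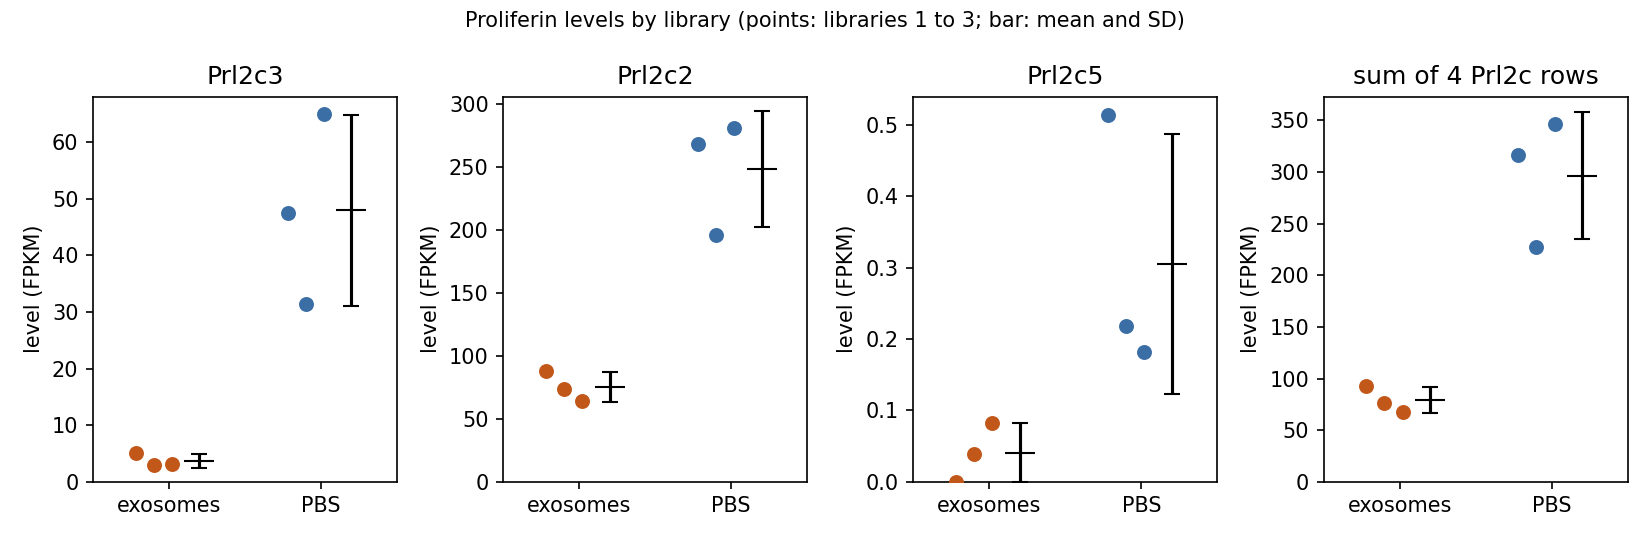
Level in FPKM (vertical axes from 0, one scale per panel) of Prl2c3, Prl2c2, Prl2c5 and the sum of the 4 Prl2c rows in the exosome (left) and PBS (right) groups, with a point per library and a bar for the mean and SD (n = 3). In the panels of Prl2c3, Prl2c2 and the sum every exosome library lies below every PBS library, and the 3 PBS libraries spread widely, between 31.3 and 64.9 FPKM for Prl2c3.

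On the log2(FPKM + 1) scale Prl2c3 changed by -3.33 (SE 0.31) and Prl2c2 by -1.70 (SE 0.16), exosomes over PBS. The median over all 10274 tested genes was 0.04. The change of Prl2c3 was the largest fall among the tested genes, which is the value the family was selected on, and that of Prl2c2 ranked 19. Next after Prl2c3 came Ereg, which encodes the growth factor epiregulin, at -3.11, and Hmox1, which encodes haem oxygenase, at -2.90. Of the 4 members, 2 passed the filter of at least 1 FPKM in 3 or more libraries, and both were above 1 FPKM in all 6. Among all tested genes, 25.4% were called raised and 18.4% lowered with exosomes by limma at a Benjamini-Hochberg adjusted p under 0.05, and nothing is read from the 2 members against that share because the contrast chose them.

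Prl2c5 and Prl2c1 were at the edge of detection. Prl2c5 was listed at 0, 0.0393 and 0.0829 FPKM in the exosome libraries, against 0.514, 0.219 and 0.182 FPKM in the PBS libraries. Prl2c1 was listed at 0 in every exosome library and in PBS libraries 2 and 3, with 0.0471 FPKM in PBS library 1. For rare genes the whole reads behind these values could be worked out from the mean normalized counts in the authors' deposited table, which were sums of 3 steps, 1 per library. Prl2c5 had 2, 1 and 4 reads in the exosome libraries, against 14, 6 and 12 in the PBS libraries. That is 7 reads in all with exosomes and 32 with PBS, with exact Poisson 95% intervals of 2.81 to 14.4 and 21.9 to 45.2 that cover counting error only. Prl2c1 had 0 reads in the exosome libraries and 0, 0 and 1 in the PBS libraries. A count of 0 allows up to 3 reads in a library, of an estimated 19200000 to 22000000 counted reads in the exosome libraries. The FPKM values and the counts did not place the same reads: the read of Prl2c1 fell in PBS library 3 by counts and in PBS library 1 by FPKM, and exosome library 1 had 2 reads of Prl2c5 beside an FPKM of 0.

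Prl2c3 itself rested on 133, 97 and 83 reads in the exosome libraries, 313 in all with an exact Poisson 95% interval of 279 to 350. Its PBS reads were too many to be separated by library. The authors' deposited table gives Prl2c3 a mean normalized count of 101 with exosomes and 1725 with PBS, 17.1-fold higher in PBS, where the FPKM gave 12.7-fold. For Prl2c2 the authors' deposited table gives 3084 with exosomes and 10934 with PBS, 3.55-fold higher in PBS, where the FPKM gave 3.30-fold. Summed over the family the deposited counts were 3187 with exosomes and 12671 with PBS, 3.98-fold higher in PBS. Both measures thus put Prl2c3 further down than Prl2c2, by amounts that differ most for Prl2c3, the smaller of the pair.

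By the listed values the pair did not keep one proportion. Prl2c3 was chosen for the largest fall, so a lower share of it with exosomes follows from that choice and is a description only. Prl2c3 made up 5.56%, 3.86% and 4.66% of the summed Prl2c FPKM in the exosome libraries, against 15.0%, 13.8% and 18.8% in the PBS libraries. The mean share was 4.69 ± 0.85% with exosomes and 15.9 ± 2.59% with PBS (SD, n = 3 each). In other terms the Prl2c2 level was 17.0, 24.9 and 20.4 times that of Prl2c3 in the exosome libraries, against 5.65, 6.25 and 4.33 times in the PBS libraries. The deposited normalized counts, which are not per length, gave Prl2c3 a share of 3.17% with exosomes and 13.6% with PBS in the authors' deposited table. The part of shared reads in this ratio was not tested. The log2 ratio of Prl2c3 to Prl2c2 averaged -4.36 ± 0.28 with exosomes and -2.42 ± 0.27 with PBS (SD, n = 3 each).

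**Figure D2:**
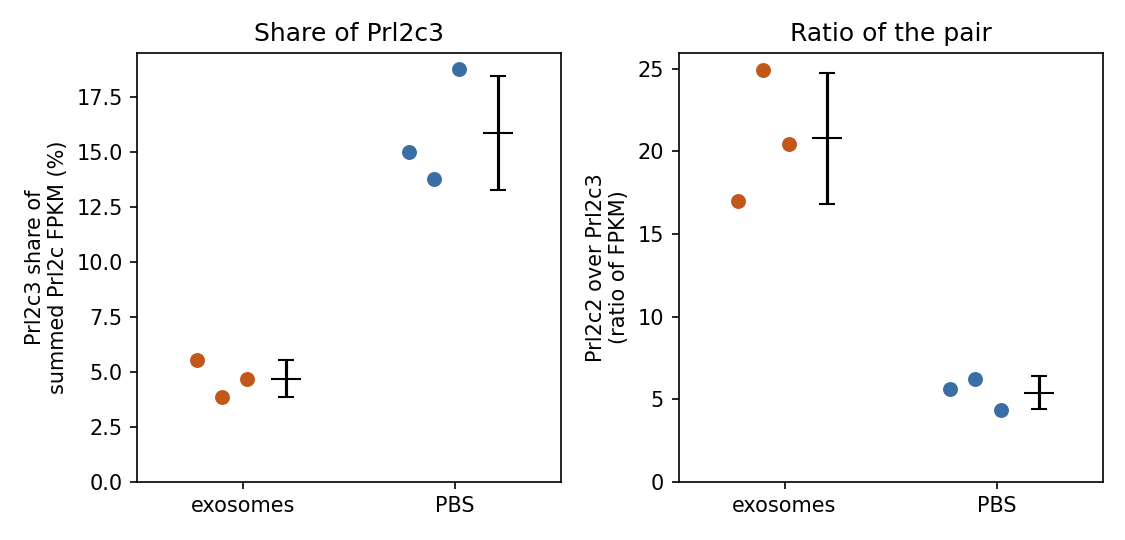
Left, share of Prl2c3 in the summed Prl2c FPKM (%), and right, Prl2c2 level divided by Prl2c3 level (ratio of FPKM), per library in the exosome (left) and PBS (right) groups, with the mean and SD as a bar (n = 3). The exosome libraries have shares of 3.86% to 5.56% and the PBS libraries 13.8% to 18.8%, with no overlap in either panel.

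Both genes also varied more between libraries of one group than most genes of like level. The coefficient of variation of Prl2c3 was 32.6% among the exosome libraries and 35.1% among the PBS libraries. Genes within 2-fold of its mean level had a median of 6.27% with exosomes and 4.02% with PBS. Prl2c2 varied by 15.6% with exosomes and 18.5% with PBS, where genes of like level had medians of 3.63% and 4.18%. PBS library 2 was the lowest of its group for both genes, and exosome library 1 the highest of its group.

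The promoter windows of the RefSeq table (build GRCm38.p6, 250 bases before to 50 bases after the gene start) matched 2 of the 4 members, Prl2c3 and Prl2c5. They are shown because AP-1 is known to act on proliferin promoters. Whether it acted on these promoters in these cells was not tested, and Prl2c2, which carried most of the proliferin signal, had no window. The motif searched was TGANTCA, a loose form of the AP-1 site in which N stands for any base. The pattern reads the same on both strands, and it also covers the stricter form with C or G as the middle base. Capitals mark its match.
Prl2c3, chr13:12800030-12800329, minus strand: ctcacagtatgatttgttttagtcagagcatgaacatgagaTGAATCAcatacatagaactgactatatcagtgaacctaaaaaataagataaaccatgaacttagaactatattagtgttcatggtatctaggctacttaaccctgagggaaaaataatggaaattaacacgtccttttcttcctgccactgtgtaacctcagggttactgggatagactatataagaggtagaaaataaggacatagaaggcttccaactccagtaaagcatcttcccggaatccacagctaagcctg
Prl2c5, chr13:13182466-13182765, plus strand: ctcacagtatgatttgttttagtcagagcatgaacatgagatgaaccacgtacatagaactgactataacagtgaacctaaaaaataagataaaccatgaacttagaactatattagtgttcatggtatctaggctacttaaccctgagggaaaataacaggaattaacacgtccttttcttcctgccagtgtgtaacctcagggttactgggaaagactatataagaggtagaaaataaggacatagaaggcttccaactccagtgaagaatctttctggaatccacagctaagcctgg

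The windows of Prl2c3 and Prl2c5 aligned with 287 identical bases, 12 mismatches and 2 gap bases. Prl2c3 held 1 match to the loose pattern TGANTCA, with A as its middle base, beginning 209 bases before the gene start. At the aligned place Prl2c5 differed by 1 base, and its window had no match. Neither window thus held the stricter form with C or G in the middle. Of all 32851 windows in the table, 7.81% held at least 1 match. A match describes the letters of the reference window and not a bound site.

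The genes nearest to the proliferins were examined in the gene order of the RefSeq table, over the genes that have a row. Prl2c3, Prl2c2 and Prl2c5 follow each other, and Prl2c1 lies apart in the main prolactin cluster of the same chromosome. Beside Prl2c5, on the side away from the other proliferins, lie Gm7040, Gpr137b, Nid1 and Lyst. Gpr137b, which encodes a lysosomal membrane protein, was at 13.5, 15.4 and 14.8 FPKM in the exosome libraries, against 33.9, 34.2 and 26.5 FPKM in the PBS libraries. It fell by 1.05 on the log2 scale (SE 0.09, limma adjusted p = 5.92e-05). Nid1, which encodes the basement membrane protein nidogen, was at 110, 122 and 131 FPKM in the exosome libraries, against 268, 252 and 244 FPKM in the PBS libraries. It fell by 1.07 (SE 0.07, limma adjusted p = 4.29e-06). Thus Gpr137b and Nid1 were lower by about the same amount, beside the -1.70 of Prl2c2 and the -3.33 of Prl2c3. The expressed neighbours Lyst and Lgals8 changed less, by -0.29 and -0.04. Over all tested genes 18.4% were called lowered.

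Lyst, a regulator of lysosome size, fell by 0.29 (SE 0.08, limma adjusted p = 0.0172). LOC105245453, a nidogen-1-like pseudogene on the other side of Prl2c3, averaged 1.15 ± 0.24 FPKM with exosomes and 1.78 ± 0.23 FPKM with PBS (SD, n = 3 each), and its reads may be shared with Nid1. Its limma adjusted p was 0.0137, and over the alternatives it ran from 0.0102 to 0.0574, the highest being without PBS replicate 1. Lgals8, which encodes a galectin, averaged 17.1 ± 0.14 FPKM with exosomes and 17.6 ± 1.28 FPKM with PBS (SD, n = 3 each) and was not called (limma adjusted p = 0.608). Edaradd and Ero1lb were too low to be tested. The near-copy Gm7040 was at 0.727, 0.431 and 0.231 FPKM in the exosome libraries, against 1.16, 1.84 and 2.68 FPKM in the PBS libraries. By counts Gm7040 had 1, 2 and 0 reads in the exosome libraries, against 2, 4 and 6 in the PBS libraries. Exosome library 3 thus had 0 counted reads beside an FPKM of 0.231, so its FPKM and counts did not rest on the same reads. Gm7040 passed the filter through the PBS libraries alone, and whether its reads came from a proliferin was not tested. Around Prl2c1, 6 of the 8 neighbours with a row were prolactin family genes listed at 0 in every library. Of the other two, Sox4, a transcription factor gene, rose by 0.51 (limma adjusted p = 0.00406), and Cdkal1 was too low to be tested.

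**Figure D3:**
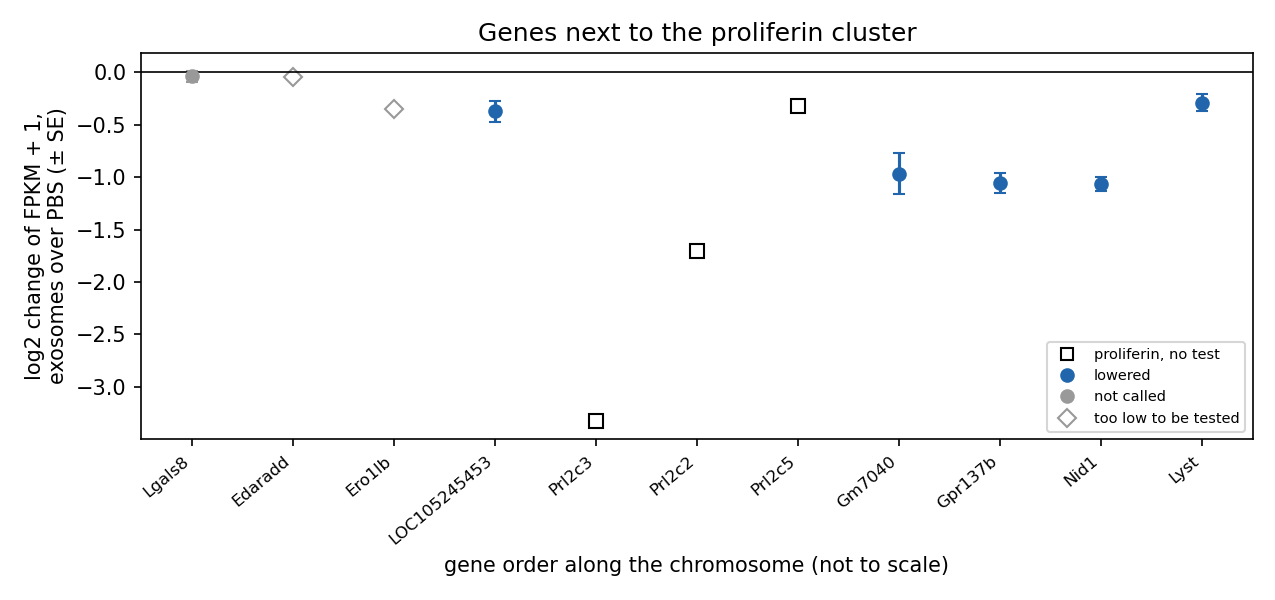
Change on the log2(FPKM + 1) scale, exosomes over PBS, of the genes around Prl2c3, Prl2c2 and Prl2c5 in chromosome order (horizontal axis, not to scale), with SE bars for tested genes, open squares for proliferins and open diamonds for genes too low to be tested. Gpr137b and Nid1 lie near -1.05 and -1.07, between the proliferins Prl2c2 and Prl2c3 below them and Lyst above them.

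The rest of the prolactin family was at or close to 0. Of 23 other genes of the family, including Prl, 19 were listed at 0 in all 6 libraries, and the others summed to at most 0.179 FPKM in an exosome library and to 0 in the PBS libraries. None could be tested. The markers of trophoblast giant cells were nearly as low: 8 of 10 were at 0 in every library, among them the placental lactogens Prl3d1 and Prl3b1 and the transcription factor Hand1. Their summed level was 0.384 to 0.987 FPKM in the exosome libraries and 0.459 to 0.905 FPKM in the PBS libraries. All 11 fibroblast markers were present, with summed levels of 7622 to 7899 FPKM in the exosome libraries and 6384 to 6785 FPKM in the PBS libraries. Of the 7 leukocyte markers 2 were at 0, and they summed to 1.85 to 2.39 FPKM with exosomes and 3.34 to 4.78 FPKM with PBS. Of 6 blood and plasma markers 1 was at 0, and they summed to 0.864 to 1.72 FPKM with exosomes and 0.961 to 2.63 FPKM with PBS. Epithelial and endothelial markers summed to 0.444 to 0.487 FPKM with exosomes and 0.546 to 0.733 FPKM with PBS. The part of the marker levels in the proliferin values was not tested.

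Of the receptors and the enzymes of the mannose 6-phosphate tag, 6 of 7 genes could be tested: 2 were raised, 1 was lowered and 3 were not called, beside 25.4% raised and 18.4% lowered over all tested genes. Igf2r, the receptor that binds proliferin, was at 61.9, 67.4 and 68.4 FPKM in the exosome libraries, against 55.6, 60.8 and 54.2 FPKM in the PBS libraries. It averaged 65.9 ± 3.48 FPKM with exosomes and 56.9 ± 3.46 FPKM with PBS (SD, n = 3 each; limma adjusted p = 0.0146). That p ran from 0.00572 to 0.0550 over the alternatives and passed 0.05 without exosomes replicate 2, exosomes replicate 3 or PBS replicate 1. Ghr, the growth hormone receptor, rose by 0.46 on the log2 scale (limma adjusted p = 0.00172). Gnptab, which encodes the catalytic part of the enzyme that makes the tag, fell by 0.36 (limma adjusted p = 0.000601), and was at 8.80, 9.58 and 9.03 FPKM in the exosome libraries, against 12.1, 12.2 and 11.6 FPKM in the PBS libraries. Prlr, the prolactin receptor, had 0 reads in the exosome group and 1 read in the PBS group.

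The 11 transducers of prolactin and growth hormone signals, all tested, moved in both directions by small amounts: 3 were raised, 5 lowered and 3 not called, beside 25.4% raised and 18.4% lowered over all tested genes, and the median change was -0.01. Socs3, a feedback inhibitor of cytokine receptors, fell by 0.52 (limma adjusted p = 6.64e-05) and Stat3 fell by 0.22 (limma adjusted p = 0.00265). Socs2, an inhibitor of growth hormone signalling and 1 of the 3 counted as raised, was at 1.005, 1.13 and 1.18 FPKM in the exosome libraries, against 0.627, 0.737 and 0.633 FPKM in the PBS libraries. It passed the filter through the exosome libraries alone, so its call is not read as support. Cish, another inhibitor of the family, and the kinases Jak1 and Jak2 changed by -0.25, -0.17 and 0.23, and their calls were lost when single libraries were left out. The limma adjusted p of Cish reached 0.117 without PBS replicate 1, that of Jak1 reached 0.0759 without exosomes replicate 1, and that of Jak2 reached 0.0517 without exosomes replicate 2. Over the alternatives these p-values began at 0.0184 for Cish, 0.0188 for Jak1 and 0.00842 for Jak2. Ptpn11, also among the 5 lowered, changed by -0.16 (limma adjusted p = 0.0204). Its call was lost without exosomes replicate 1, exosomes replicate 2, PBS replicate 1 or PBS replicate 3. Stat5a, the main transducer of prolactin signals, averaged 2.46 ± 0.09 FPKM with exosomes and 2.26 ± 0.17 FPKM with PBS (SD, n = 3 each) and was not called (limma adjusted p = 0.314).

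Of the 8 AP-1 subunits, all tested, 5 were lowered, 1 was raised and 2 were not called, where 18.4% of all tested genes were lowered and 25.4% raised. The median change was -0.72, against 0.04 over all tested genes. Fos was at 1.11, 1.33 and 1.03 FPKM in the exosome libraries, against 11.1, 10.2 and 10.1 FPKM in the PBS libraries. It fell by 2.41 on the log2 scale (SE 0.07, limma adjusted p = 1.85e-07). Unlike Prl2c3, Fos was nearly level among the PBS libraries. Junb fell by 1.77 and Fosl1 by 1.69 (limma adjusted p = 6.9e-07 for each). Jun, a partner of Fos, was at 34.7, 38.1 and 39.8 FPKM in the exosome libraries, against 68.3, 64.8 and 56.9 FPKM in the PBS libraries. It fell by 0.74 (limma adjusted p = 7.83e-05). Jund, a subunit that is known to slow growth in fibroblasts, rose by 0.38 (limma adjusted p = 0.00249).

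The ERK feedback genes, which the ERK kinase cascade induces and which mark its activity, had 11 of 12 members lowered, 0 raised and 1 not called, where 18.4% of all tested genes were lowered and 25.4% raised. The median change was -1.003, against 0.04 over all tested genes. Dusp6, a phosphatase of ERK, was at 9.61, 11.2 and 13.0 FPKM in the exosome libraries, against 45.8, 38.4 and 40.5 FPKM in the PBS libraries. It fell by 1.80 (limma adjusted p = 5.09e-06). Dusp4, another such phosphatase, fell by 1.79 (limma adjusted p = 4.07e-06). Spry4, an inhibitor of growth factor receptor signals, fell to 2.83 ± 0.25 FPKM with exosomes, against 7.19 ± 0.04 FPKM with PBS (SD, n = 3 each; limma adjusted p = 2.91e-06). Etv1, a transcription factor downstream of ERK, fell by 1.08 (limma adjusted p = 3.76e-06). Dusp1, also among the 11 lowered, changed by -0.98 (limma adjusted p = 0.0303). Its call was lost without exosomes replicate 2, exosomes replicate 3, PBS replicate 1 or PBS replicate 3. It was also lost with the replicate number as a block.

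Of the 19 growth factors and receptors of the kinds known to induce proliferin, 11 could be tested: 4 were lowered, 1 was raised and 6 were not called, where 18.4% of all tested genes were lowered and 25.4% raised. The median change was -0.07. Ereg, a ligand of the EGF receptor, was at 2.68, 2.69 and 2.60 FPKM in the exosome libraries, against 31.8, 23.6 and 38.3 FPKM in the PBS libraries. It fell by 3.11 (SE 0.15, limma adjusted p = 4.07e-06). Hbegf, a second ligand of that receptor, fell by 1.35 (limma adjusted p = 1.48e-06) and Erbb2, a partner of it, fell by 0.25 (limma adjusted p = 0.0101). Among the PDGF receptors Pdgfra rose by 0.70 (limma adjusted p = 9.36e-06). Pdgfrb changed by -0.22 (limma adjusted p = 0.0223), a p that ran from 0.0204 to 0.0803 over the alternatives and passed 0.05 without exosomes replicate 2, exosomes replicate 3 or PBS replicate 3 and without the filter on low values.

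Of the 14 angiogenic factors, 10 could be tested: 3 were lowered, 2 were raised and 5 were not called, where 18.4% of all tested genes were lowered and 25.4% raised, so these counts are near the background. The median change was -0.11. Cyr61, a matrix protein that binds integrins and an early growth factor response gene, was at 34.3, 35.02 and 39.9 FPKM in the exosome libraries, against 129, 115 and 137 FPKM in the PBS libraries. It fell by 1.77 (limma adjusted p = 6.9e-07). Vegfa, the main growth factor of blood vessels, fell by 0.45 (limma adjusted p = 0.000474) and Angptl4 fell by 0.48 (limma adjusted p = 0.00738). Vegfd, a ligand that also acts on lymphatic vessels, rose by 0.64 (limma adjusted p = 9.51e-05), and Thbs2, an inhibitor of vessel growth, rose by 0.31 (limma adjusted p = 0.000411).

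The genes whose pattern over the 6 libraries was most like that of Prl2c3 were then listed. Likeness is the root mean square difference of log2(FPKM + 1) after each gene is centred on its own mean, so it counts the size of the fall and the order of the libraries together. Prl2c3 was chosen for its fall, the largest of all, so a gene can lie near it only by falling steeply too. The median distance of the 10273 other tested genes was 1.72, which mostly reflects the size of that fall and is given as a scale only. The nearest was Ereg at 0.25, and the next was Ier3, an immediate early gene of cell survival, at 0.38. Hmox1 followed at 0.50, Ptgs2, the inducible cyclooxygenase, at 0.58, and Id1, an inhibitor of differentiation factors, at 0.59. Fos and Cck, which encodes the peptide hormone cholecystokinin, both lay at 0.60, and the chemokine gene Cxcl1 lay at 0.78. Prl2c2 ranked 11, at 0.84.

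Ier3 was at 19.8, 17.1 and 16.4 FPKM in the exosome libraries, against 121, 95.5 and 140 FPKM in the PBS libraries. Cck was at 1.70, 0.782 and 0.908 FPKM in the exosome libraries, against 9.85, 4.59 and 12.3 FPKM in the PBS libraries. Both had their lowest PBS value in library 2 and their highest in library 3. Prl2c3, Prl2c2, Ereg, Ptgs2, Id1 and Cxcl1 had the same order. Likeness counts the order of the libraries, so for the nearest genes this follows in part from how they were picked. The share of all tested genes with this order was not worked out. Hmox1 was at 29.1, 29.4 and 28.0 FPKM in the exosome libraries, against 234, 246 and 190 FPKM in the PBS libraries, with its lowest PBS value in library 3. These libraries are the points of every pattern, so the likeness describes them and carries no test.

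**Figure D4:**
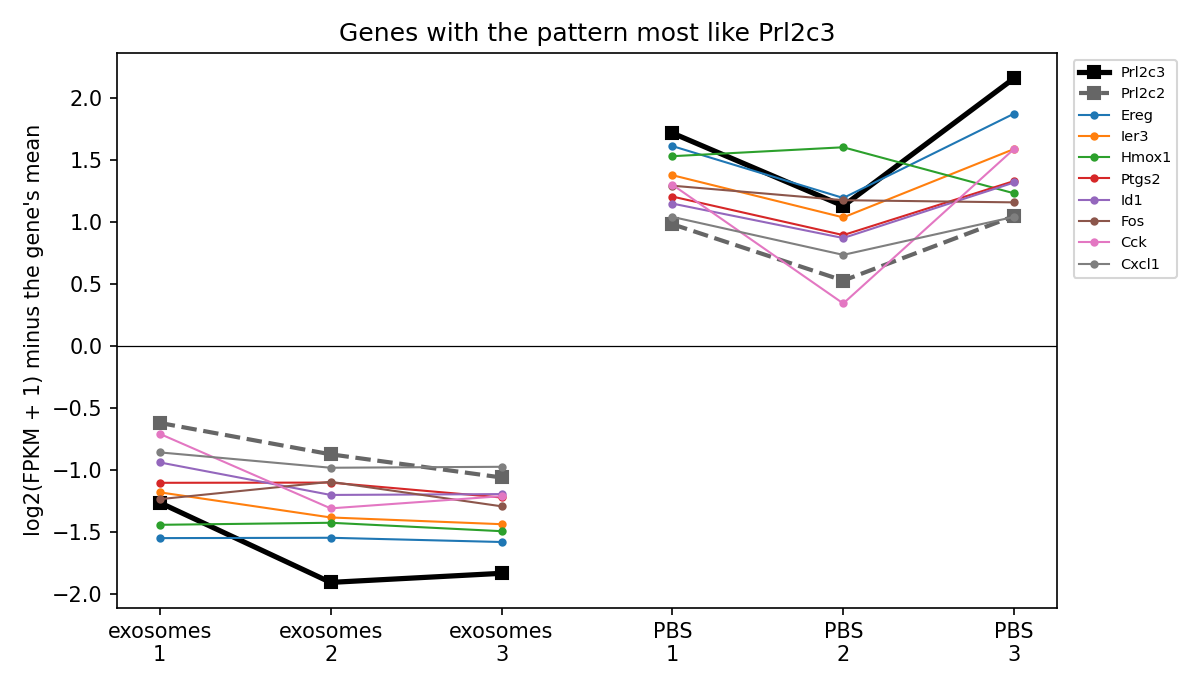
log2(FPKM + 1) minus each gene's own mean (vertical axis) in the 3 exosome and 3 PBS libraries for Prl2c3 (black), Prl2c2 (dashed) and the 8 genes nearest to Prl2c3, with lines joining the points of one gene within a group as a guide. Prl2c3 has the widest swing of those drawn, and PBS library 2 is the lowest of its group for every gene drawn except Hmox1 and Fos.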

How the data were processed

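The authors deposited one table for the 6 libraries. Its values per library are read as FPKM, because the submitters' processing notes name Cufflinks and the deposited column headers say only expression. The authors deposited, per the file headers, a mean normalized count signal for each group and the ratio of exosomes to PBS, and also p-values, which were not used for the proliferins. The notes also name HISAT2, Bowtie2, HTSeq and StringTie and the mm9 build, with no role. The sources used here do not say if counting used strand. mRNA libraries were made with a stranded TruSeq kit, per the labels.

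Genes reaching 1 FPKM in at least 3 libraries were tested on log2(FPKM + 1) with limma 3.58.1 in R 4.3.3 (trend, robust, group as the only term, two-sided), and calls needed a Benjamini-Hochberg adjusted p under 0.05 over all 10274 genes tested. The scale understates changes of low genes. The test was checked on simulated data with normal spread and with changes placed only in genes of higher level. That check therefore does not cover low genes or other kinds of spread. Whole reads were worked out from the deposited group means with the size factors their steps gave (0.971, 1.11 and 1.05 for exosomes, 0.988, 0.973 and 0.923 for PBS), and all 1598 distinct exosome sums and all 1561 PBS sums under 100 reads had exactly 1 combination within a tolerance of 5e-07. The estimated depth was 19200000 to 22000000 counted reads in the exosome libraries and 18800000 to 20100000 in the PBS libraries. A model of counts had been planned for a table of counts and was not fitted, because counts per library could be had only for rare genes.

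Transcripts were aligned with Biopython 1.88 and searched with BLAST 2.17.0. Promoters came from RefSeq (GRCm38.p6), whose coordinates are not those of mm9. Members, gene lists and tests were chosen with earlier results of these data known. Named were all Prl2c rows, the called list members with the largest changes (up to 4 in each direction), Igf2r, Prlr, Fos, Jun and Stat5a, the 8 genes most like Prl2c3, and up to 4 neighbours on each side. Dusp1 and Ptpn11 were added because their calls were lost in several alternatives. Of the listed markers, Hbb-b1 had no matching row. One called list member that the rule names is not reported here. Libraries with the same replicate number did not deviate together (correlations of -0.12, -0.02 and -0.29), so the replicate number was not used as a block. Alternatives were other pseudocounts, filters and scaling, the block, and leaving out each library in turn.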

Additional observations from a re-analysis of the deposited data

How the results depend on the processing

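The log2 change of Prl2c3 ran from -3.62 to -3.09 and that of the summed proliferins from -2.06 to -1.76 over 12 alternatives each. The other filters and the replicate block cannot change these values, so they add no check of them. The genes called raised numbered 1813 to 2915 and those called lowered 1403 to 1891. With the replicate block, 2288 were raised and 1626 lowered. The lowered JAK-STAT transducers, 5 with all libraries, numbered 3 to 4 and the lowered receptor and tagging genes 1 to 2 when single libraries were left out, and the cause was not tested. The lowered members of the AP-1, growth factor, ERK feedback and angiogenic lists stayed within 1.5 times their counts, at 4 to 6, 3 to 5, 9 to 11 and 3 to 4. With 3 libraries a group and counts known only as group means for abundant genes, the depth does not settle how reads split between Prl2c3 and Prl2c2.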

Other observations

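Csf1r, the receptor of macrophage colony-stimulating factor and 1 of the leukocyte markers, was at 0.381, 0.254 and 0.249 FPKM in the exosome libraries, against 1.77, 0.759 and 3.22 FPKM in the PBS libraries. The groups did not overlap, and the order of the PBS libraries was that of Prl2c3. The share of all genes with such a gap and order was not worked out, so neither is read as a result. Csf1r did not pass the filter and was not tested. It rested on 38, 30 and 28 reads in the exosome libraries. The other leukocyte markers did not share this gap: Cd68 averaged 1.81 ± 0.33 FPKM with exosomes and 1.90 ± 0.64 FPKM with PBS (SD, n = 3 each), and Cd3e was at 0 in every library.

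Areg, which encodes amphiregulin, a ligand of the EGF receptor like Ereg, was too low to be tested. It had 7, 3 and 1 reads in the exosome libraries, against 16, 9 and 20 in the PBS libraries, and 0.206, 0.0745 and 0.0257 FPKM in the exosome libraries, against 0.412, 0.203 and 0.570 FPKM in the PBS libraries. The groups did not overlap by reads but did by FPKM, and PBS library 2 was the lowest of its group by both.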
